A study of Mus musculus with 39 samples.

Results

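Mouse lung fibroblasts that had been in the highest dose of C1q, 100 µg/ml, for 24 h were compared with the same kind of culture after 2 h in that dose. The comparison uses 6 of the 39 libraries of the series, 3 at 24 h and 3 at 2 h, chosen by the dose and time in their labels and by no measured value. The cells came from lungs of wild-type (WT) C57BL/6 mice and were lineage-negative, meaning that magnetic beads had taken out cells positive for Ter119, CD146, EpCAM, CD31 or CD45. They were grown on plastic with 10% serum, passaged to multi-well plates and starved of serum for 24 h, after which C1q from MilliporeSigma was added. No source used here gives the age or sex of the animals or says whether lungs were pooled. The other libraries used below are 6 at 24 h and 6 at 2 h of the lower doses (3 each of 1 and 10 µg/ml), 3 each of 100 µg/ml at 48 h and 72 h, and 3 untreated at 0 h. Those of 1 µg/ml at 48 h are mentioned once, for the spread between libraries of a group. Untreated cells at 2 h or 24 h are not analysed here, so the length of exposure to C1q and the time in culture cannot be told apart in the change described here. The labels do not say that the 3 libraries of a group are separate cultures or animals, so the p-values measure the spread between libraries, which may be technical.

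C1q is the recognition part of the first complement component. It binds antibody-coated surfaces, dying cells and several cell surface proteins, and starts the classical complement cascade together with the proteases C1r and C1s. Fibroblasts of the lung lay down and remodel collagen and elastic fibres, and adventitial fibroblasts around vessels and airways and alveolar fibroblasts of the gas-exchange region carry different marker genes. A cell that is disturbed or stimulated switches on immediate early genes within minutes to hours, mostly transcription factors that are normally transient, and slower programmes of metabolism, division and matrix production follow.

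The 6 libraries held 1806106 to 2637521 counts each, and 14419 of the 30012 gene names in the table had enough counts to be tested. Levels are given as CPM, counts scaled to a common library size after adjustment of the libraries to each other, and differences as log2 of 24 h over 2 h with the standard error. In a principal component analysis of these 6 alone, the first axis (59.33% of the variance) placed the 24 h libraries at -36.32 to -33.36 and the 2 h libraries at 33.78 to 34.72. Genes with at least 1 count numbered 21052 to 21474 at 24 h and 19701 to 20560 at 2 h, and the row with the most counts, LOC118568312, took 10.565% to 11.912% of the counts at 24 h and 6.7594% to 8.0722% at 2 h. Both moved with time, and their part in the results was not tested beyond the fit without that row and the fit at equal depth. The table's column names for the 24 h libraries at 100 µg/ml are spelled differently from those at 2 h and were matched by their serial number, so that spelling cannot be told apart from time at this dose. The 10 µg/ml columns change spelling between 2 h and 24 h in the same way. Summed over 10 general fibroblast markers, the level was 6992 to 7690 CPM at 24 h and 7375 to 7642 CPM at 2 h, and of the defining markers Col1a1, Col1a2, Col3a1, Pdgfra and Vim none was below the 458 CPM of Pdgfra in any of the 6 libraries. The markers that define fibroblasts were thus present in each library.

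Between 24 h and 2 h, most genes on the lists for immediate early response, cholesterol and fatty acid synthesis, DNA replication, mitosis, protein folding and ribosome production were lower at 100 µg/ml, and most of those for small proteoglycans, adventitial fibroblast markers, complement and interferon response were higher. Counts over a list cover its tested members, since members with too few counts could not be called. The lists and their members were chosen with earlier results of these data known, so their counts describe the change and do not test it. Of the 14419 tested genes, 2407 (16.7%) rose and 2807 (19.5%) fell at an adjusted p under 0.05 in edgeR's quasi-likelihood test. The 3 libraries of one time lay entirely beyond the 3 of the other for 2258 of the genes that rose and 2671 of those that fell. The same held for 6893 of all 14419 tested genes, called or not, so a lack of overlap alone was common. A change of at least 1 log2 unit was seen for 753 of the rises and 569 of the falls, and the median over all tested genes was 0.05. Among the called genes, 464 are predicted or unnamed transcripts and are only counted.

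**Figure D1:**
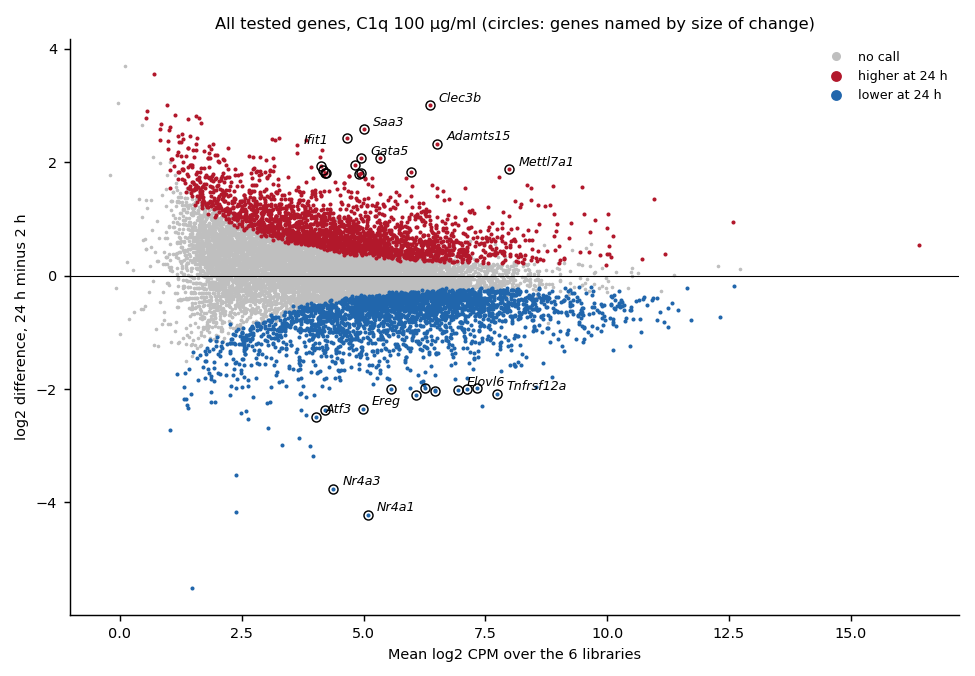
Log2 difference of 24 h minus 2 h at 100 µg/ml (vertical axis) against mean log2 CPM over the 6 libraries (horizontal axis), 1 point per tested gene: red for the 2407 genes that rose, blue for the 2807 that fell and grey for those without a call. Black circles mark the genes chosen for the size of their rise or fall and named in the text, some of them labelled, from Clec3b at 3.002 to Nr4a1 at -4.22; more extreme points on the left are low-count genes.

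Among well expressed genes with libraries apart, the largest rise was that of Clec3b (chr9:123150946-123157432, GRCm38.p6), which encodes tetranectin, a plasminogen-binding protein of the extracellular space and a marker of adventitial fibroblasts. It had 245, 241 and 202 CPM at 24 h, against 32.6, 23.1 and 30.7 CPM at 2 h, a log2 difference of 3.002 ± 0.12 (adjusted p = 1.78e-23 by edgeR). Saa3, a serum amyloid A of the acute phase, had 78.8, 87.4 and 64.1 CPM at 24 h, against 15.9, 10.9 and 11.5 CPM at 2 h (log2 2.58 ± 0.35, adjusted p = 6.79e-08 by edgeR). Adamts15, a secreted metalloprotease that cuts the proteoglycan versican, had 190.0, 207 and 209 CPM at 24 h, against 39.2, 34.001 and 48.8 CPM at 2 h (log2 2.33 ± 0.16). In all 3 genes every library at 24 h lay above every library at 2 h. The rest of the 15 largest rises were Ifit1, Ifit3 and Ifit3b of the interferon response, described below, the transcription factor gene Gata5 (2.07), Ccdc9b (1.95), Mettl7a1 (1.88), the collagen gene Col27a1 (1.86), the lectin gene Clec2d (1.83), the pro-apoptotic BH3-only gene Bmf (1.81), the thromboxane receptor gene Tbxa2r (1.81), the non-classical MHC class I gene H2-T23 (1.81) and Vsir (1.798), whose product VISTA restrains T cells. All 15 had a lower mean at 2 h than in untreated cells at 0 h, by differing amounts. Choosing large rises favours genes that are low at 2 h, so this direction was partly set by the choice. The difference of 2 h from untreated was not called for several, such as Clec3b (log2 -0.22 ± 0.15) and Ifit1 (-0.14 ± 0.69). It was called for others, such as Gata5 (-1.94 ± 0.18) and Clec2d (-1.81 ± 0.13). Gata5 averaged 56.4 CPM untreated, 14.8 at 2 h and 61.6 at 24 h, and Clec2d 114, 32.6 and 116 CPM. The 24 h levels of these 2 genes thus stood near the untreated ones. Adamts15 averaged 114, 40.65 and 202 CPM at these times, and Clec3b 32.97, 28.8 and 229.5 CPM.

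Nr4a1 (chr15:101253902-101274795, GRCm38.p6) fell most among well expressed genes, an orphan nuclear receptor and immediate early gene. It had 9.898, 4.39 and 9.06 CPM at 24 h, against 163, 174 and 94.8 CPM at 2 h (log2 -4.22 ± 0.25, adjusted p = 2.23e-18 by edgeR). Every 24 h library was many times lower than every 2 h library, and the third 2 h library was lower than the other two of its group. Other genes among the 15 largest falls belong to a few known programmes. Nr4a3 (-3.76), Atf3 (-2.49) and Maff (-2.03) are stimulus-induced transcription factor genes. Ereg (-2.35) encodes an EGF receptor ligand and Errfi1 (-1.99) an inhibitor of that receptor. Tnfaip6 (-2.36) and Tnc (-2.003) encode a hyaluronan-binding protein and tenascin C, both made in wounds. Acat3 (-1.99) and Elovl6 (-2.01) belong to sterol and fatty acid synthesis. Pclaf (-2.004) encodes a partner of the replication clamp, and Pvr (-2.098) and Tnfrsf12a (-2.08) encode the surface proteins CD155 and Fn14.

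**Figure D2:**
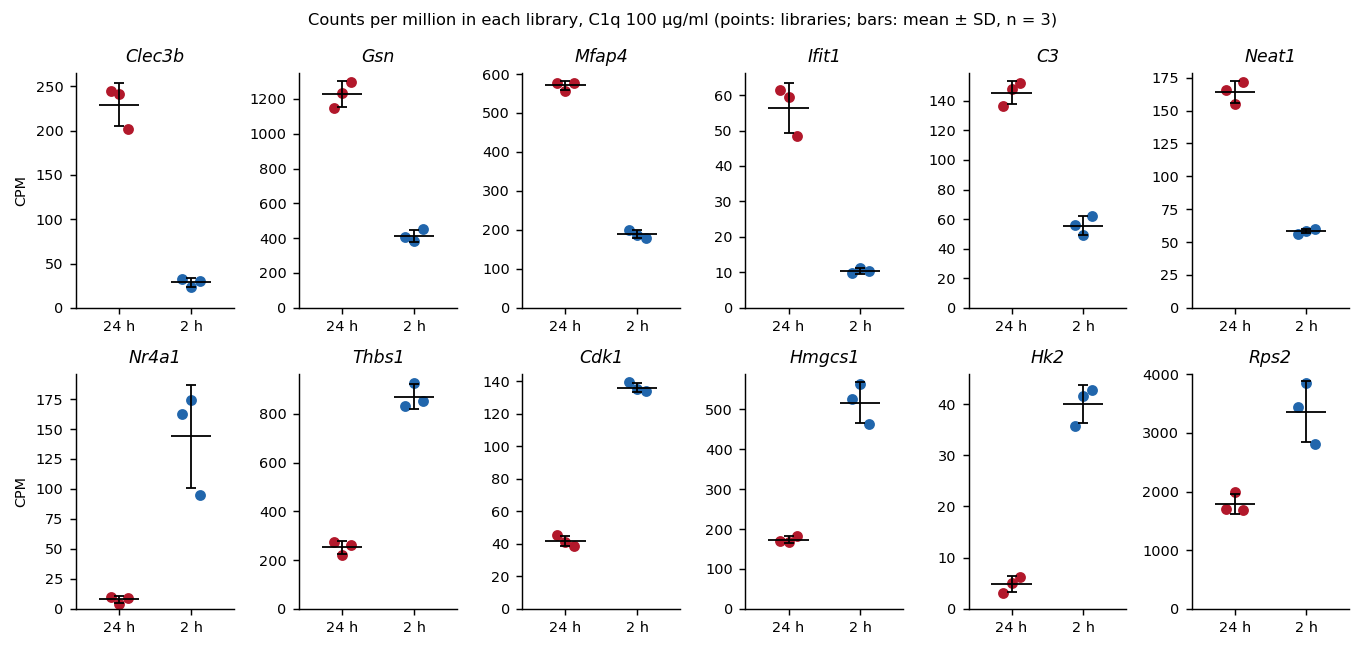
CPM (vertical axis, linear and starting at 0) of 12 genes in each of the 6 libraries, 24 h in red left of 2 h in blue, with 1 point per library and black bars for the mean ± SD (n = 3). In each of the 12 genes the 24 h and 2 h points do not overlap: for Clec3b the 24 h points reach from 202 to 245 CPM and the 2 h points from 23.1 to 32.6 CPM.

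Immediate early genes were lower at 24 h almost throughout. Of 21 tested, 18 fell, 2 rose and Jun was not called, with a median log2 of -1.01, where 19.5% of all tested genes fell and 16.7% rose. Fosb, whose protein pairs with Jun proteins in AP-1, had 1.19, 0.731 and 0.697 CPM at 24 h, against 15.9, 21.5 and 10.4 CPM at 2 h (log2 -4.16 ± 0.42). Fosl1, a relative of it, had 5.94, 4.02 and 4.53 CPM at 24 h, against 45.8, 50.2 and 33.96 CPM at 2 h (log2 -3.18 ± 0.22). Both genes had all 24 h libraries below all 2 h libraries, Fosb at counts of only a few reads at 24 h. Nr4a2 (-2.87), the growth regulator Myc (-1.799), Egr3 (-1.28), Egr2 (-1.104) and Ier2 (-1.01) fell too. Fos went the other way and had 12.7, 11.3 and 10.1 CPM at 24 h, against 5.73, 5.67 and 6.03 CPM at 2 h (log2 0.96 ± 0.24, adjusted p = 0.00174 by edgeR), the 24 h libraries being the higher ones without overlap. The Krüppel-like factor gene Klf2 also rose (0.66 ± 0.19). In untreated cells at 0 h, Fos averaged 15.1 ± 0.999 CPM and Nr4a1 5.63 ± 1.05 CPM (SD, n = 3). The 24 h level of Nr4a1 thus stood near the untreated one, while Fos was lowest at 2 h. The comparisons with untreated cells share the 2 h and 24 h libraries with the main one and are given side by side, without a test between them.

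Feedback inhibitors of the growth factor kinase ERK, which are themselves switched on by ERK, followed the same direction. Of 13 tested, 8 fell and 0 rose, and over the alternative fits 5 to 8 fell and 0 to 1 rose. The phosphatase gene Dusp6 had 25.7, 30.3 and 22.6 CPM at 24 h, against 70.9, 79.7 and 71.2 CPM at 2 h (log2 -1.498 ± 0.15). Errfi1 had 74.8, 78.96 and 86.4 CPM at 24 h, against 310.1, 372 and 270.0 CPM at 2 h (log2 -1.99 ± 0.13). Neither overlapped between the times, and Dusp5 (-2.101) and Dusp4 (-1.398) fell as well, whereas Dusp1, Dusp14, Spry2, Spred1 and Spred2 were not called. Among 16 growth factor ligand genes, 6 fell and 2 rose. Ereg had 14.3, 14.3 and 12.2 CPM at 24 h, against 71.4, 76.1 and 59.2 CPM at 2 h (log2 -2.35 ± 0.17), with a clear gap between the times. Hbegf (-1.02) and Vegfa (-0.82) fell, and Fgf10 (0.67), an epithelial growth factor of lung mesenchyme, rose. Igf1 was near 215 CPM at 24 h and 206 CPM at 2 h and was not called.

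**Figure D3:**
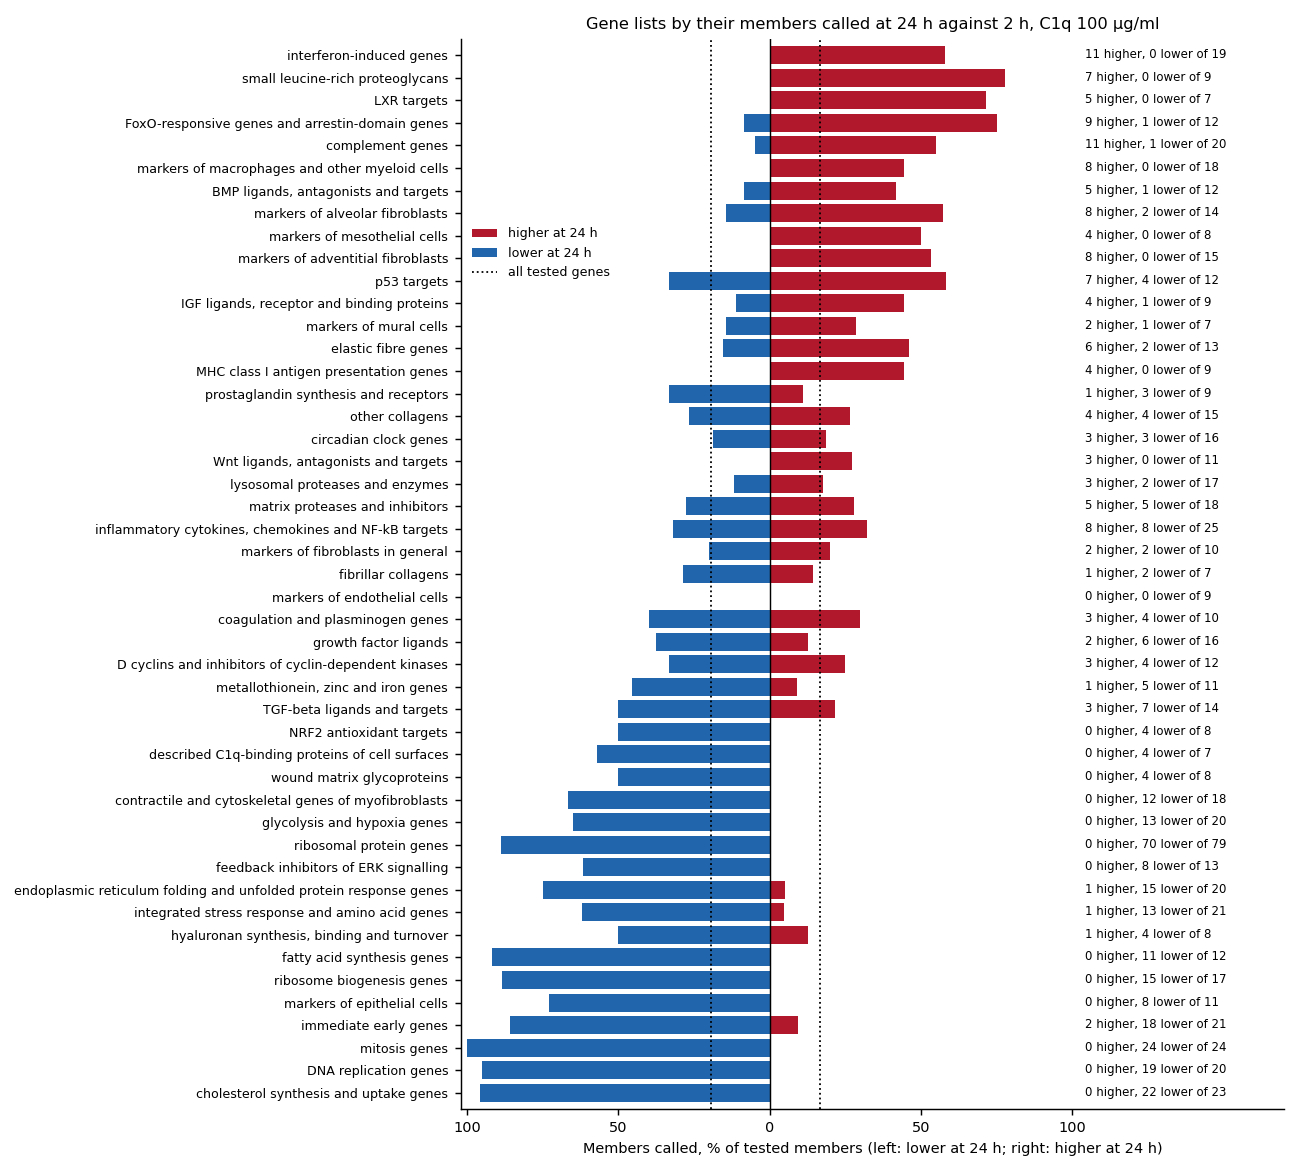
Share of the tested members of each gene list (rows, ordered by median log2 difference) that rose at 24 h against 2 h (red, to the right) or fell (blue, to the left), in percent, for lists of at least 7 tested genes, with the counts at the right. Dotted lines mark the shares over all tested genes, 16.7% higher and 19.5% lower; all 24 mitosis genes were lower and 7 of 9 small proteoglycan genes were higher, while the inflammatory list had 8 on each side.

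The inflammatory genes split. Of 25 tested, 8 rose, 8 fell and 9 had no call, with a median of 0.01 that fell below 0 in several of the alternative fits. Those that fell include cytokines of the IL-6 family and monocyte-attracting chemokines. Il11 had 9.11, 8.41 and 10.8 CPM at 24 h, against 43.2, 37.2 and 31.2 CPM at 2 h (log2 -1.98 ± 0.20). Lif had 19.004, 20.5 and 21.3 CPM at 24 h, against 72.7, 65.6 and 75.04 CPM at 2 h (log2 -1.803 ± 0.17). Ccl2, the main chemokine for monocytes, had 67.3, 77.1 and 61.3 CPM at 24 h, against 212, 213 and 169.8 CPM at 2 h (log2 -1.54 ± 0.13). All 3 were lower in each 24 h library than in any 2 h library, and Ccl7 (-1.44), the prostaglandin synthase gene Ptgs2 (-1.85) and Tnfaip6 fell with them. Genes that rose include acute phase and feedback genes, with Saa3, given above, Lcn2 (2.43, at 4.36, 4.39 and 6.62 CPM at 24 h, against 1.76, 0.81 and 0 CPM at 2 h), the cytokine signalling inhibitor gene Socs3 (1.22) and the transcription factor gene Cebpd. Cebpd had 222, 241 and 227 CPM at 24 h, against 87.2, 76.1 and 71.2 CPM at 2 h (log2 1.55 ± 0.12), without overlap. Its untreated level was 259 ± 8.497 CPM (SD, n = 3), so the 2 h group was the low one of the 3. Nfkbia and Tnfaip3, direct targets of NF-κB, had no call.

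Interferon-induced genes, which a cell turns on when its interferon receptors are engaged, were higher at 24 h. Of 19 tested, 11 rose and 0 fell. Ifit1, whose product binds foreign RNA, had 61.4, 59.6 and 48.4 CPM at 24 h, against 9.69, 11.3 and 10.4 CPM at 2 h (log2 2.42 ± 0.51, adjusted p = 2.06e-04 by edgeR). Ifit3 had 71.7, 87.4 and 82.6 CPM at 24 h, against 20.3, 17.8 and 19.2 CPM at 2 h (log2 2.08 ± 0.45). Stat2 had 56.2, 52.3 and 65.5 CPM at 24 h, against 16.7, 20.6 and 15.3 CPM at 2 h (log2 1.71 ± 0.23). The 3 genes had every 24 h library above every 2 h library, yet their standard errors, as fitted over the 39 libraries, were larger than that of Clec3b. For Ifit1 and Ifit3 they were several times larger, for Stat2 less so. Oasl2 (1.76 ± 0.37), Usp18 (1.57 ± 0.48), Mx2 (2.24 ± 0.66) and Irf9 (1.09 ± 0.18) also rose. Isg15 had 63.7, 56.3 and 49.1 CPM at 24 h, against 25.6, 25.5 and 29.03 CPM at 2 h and was not called (adjusted p = 0.0951 by edgeR). The number of members called ran from 9 to 16 over the alternatives, 16 of them when only the 6 libraries were fitted. Among 9 genes of MHC class I antigen presentation, 4 rose, among them H2-D1 (0.58), Tap2 (0.66) and Tapbp (0.86), and B2m had no call.

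The sequences just before the start of Ifit1 and Ifit3 are printed because both genes moved together and carry the same repeated letters. They are RefSeq windows of GRCm38.p6, 250 bases up to the start that the RefSeq promoter table gives, 5′ to 3′ on the gene's strand, with matches to TTTCNNTTT in capitals. For Ifit3 that start lies inside the interval RefSeq gives for the whole gene, chr19:34583119-34588982, which begins further upstream. These letters are shared by sites of interferon-activated factors; a match is a description of sequence only. The motif was searched on both strands in windows from 250 bases before to 50 bases after each start, and it occurred in 11 of 20 windows of the interferon-induced genes (55.0%), in 8.98% of windows of all genes that rose and in 8.25% of the 14198 windows of all tested genes. This motif was added, and then shortened, after the data were seen, so these shares are a description and not a test. TTTCNNTTT contains none of the other motifs named below.
Ifit1, chr19:34640639-34640888, plus strand: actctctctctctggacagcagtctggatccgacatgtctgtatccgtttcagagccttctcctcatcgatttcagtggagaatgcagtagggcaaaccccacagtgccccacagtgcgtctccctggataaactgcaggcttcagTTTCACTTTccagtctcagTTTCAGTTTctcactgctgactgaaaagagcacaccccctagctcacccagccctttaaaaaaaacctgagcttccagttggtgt
Ifit3, chr19:34583279-34583528, plus strand: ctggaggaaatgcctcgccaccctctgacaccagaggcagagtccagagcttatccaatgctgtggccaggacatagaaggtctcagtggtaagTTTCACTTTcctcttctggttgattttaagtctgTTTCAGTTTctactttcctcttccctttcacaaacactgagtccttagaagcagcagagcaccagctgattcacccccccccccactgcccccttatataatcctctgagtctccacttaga

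Genes of wound repair and of TGF-β signalling, the pathway that drives fibroblasts to make scar, fell at 24 h about as often as they rose or had no call. Of 14 ligands and targets of TGF-β, 7 fell, 3 rose and 4 had no call. The ligand gene Tgfb3 (0.42 ± 0.11) and the target gene Tgfbi (0.93 ± 0.20) rose. The target Ccn2, which encodes connective tissue growth factor, had 90.7, 96.5 and 96.8 CPM at 24 h, against 177, 204 and 184 CPM at 2 h (log2 -0.99 ± 0.11, adjusted p = 9.71e-10 by edgeR). Its 24 h libraries were lower without overlap, and Inhba (-1.36), a ligand of the same family, Smad7 (-0.54) and Skil (-0.37), the last 2 being inhibitors of the pathway, fell too. Of 8 glycoproteins of the wound matrix, 4 fell and 4 had no call. Thrombospondin 1, Thbs1, had 273, 221 and 261 CPM at 24 h, against 831, 928 and 853 CPM at 2 h (log2 -1.79 ± 0.11). Tnc had 60.97, 67.99 and 78.4 CPM at 24 h, against 232, 307 and 295 CPM at 2 h (log2 -2.003 ± 0.14). The gap was wide in both. Spp1 (-1.297), osteopontin, and Vcan (-0.70), versican, fell, and Fn1, Thbs2, Postn and Sparc had no call.

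Contractile genes of myofibroblasts were lower by small amounts. Of 18 genes, 12 fell and 0 rose, with a median of -0.47. Acta2, smooth muscle actin, had 957, 965 and 950.4 CPM at 24 h, against 1294, 1255 and 1184 CPM at 2 h (log2 -0.38 ± 0.12, adjusted p = 0.0149 by edgeR). Tagln had 385, 361 and 304 CPM at 24 h, against 608, 617 and 554 CPM at 2 h (log2 -0.76 ± 0.11). Des, desmin, had 18.6, 27.8 and 20.9 CPM at 24 h, against 66.5, 53.03 and 59.7 CPM at 2 h (log2 -1.41 ± 0.16). The times did not overlap for these 3, and Cnn1 (-1.06), Actg2 (-1.01), Tpm4 (-0.68) and Cald1 (-0.55) fell as well. Among 10 coagulation and plasminogen genes, 4 fell, among them the urokinase receptor gene Plaur (-1.45), Tfpi2 (-0.73) and tissue factor, F3 (-0.47), and 3 rose, led by the protease inhibitor gene Serpine2 (0.56).

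Genes of the structural matrix went both ways, by class. Small leucine-rich proteoglycans, which bind collagen fibrils and shape their assembly, rose in 7 of 9 genes with 0 lower (median 1.08). Decorin, Dcn, had 649, 772 and 684 CPM at 24 h, against 366, 304 and 327 CPM at 2 h (log2 1.08 ± 0.09). Ogn, osteoglycin, had 1123, 1116 and 981 CPM at 24 h, against 515, 472 and 537 CPM at 2 h (log2 1.08 ± 0.09). Podn had 166, 168 and 178 CPM at 24 h, against 63.9, 68.4 and 67.4 CPM at 2 h (log2 1.36 ± 0.11). All 3 were higher in each 24 h library, and Aspn (1.32), Fmod (1.28), Prelp (0.54) and Bgn (0.37) rose with them, while Lum and Omd had no call. Of 13 elastic fibre genes, 6 rose and 2 fell. Mfap4, a microfibril-associated protein, had 577, 557 and 577 CPM at 24 h, against 199, 187 and 179.7 CPM at 2 h (log2 1.596 ± 0.09), far apart, and Mfap5 (0.72), Mfap2 (0.65) and elastin, Eln (0.44), rose. Fbln2 (-0.43), fibulin 2, fell.

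The main fibrillar collagens moved little. Col1a1 had 1174, 1289 and 1356 CPM at 24 h, against 1430.4, 1452 and 1568 CPM at 2 h (log2 -0.22 ± 0.11) and Col1a2 a log2 difference of -0.01 ± 0.08, and neither was called. Col3a1 had 1752, 1908 and 1944 CPM at 24 h, against 1505, 1472 and 1583 CPM at 2 h (log2 0.30 ± 0.08, adjusted p = 0.00459 by edgeR), a rise without overlap but of small size. Of the 7 genes on the list of fibrillar collagens, 1 rose and 2 fell. Col27a1, a fibrillar collagen of developing cartilage, is on neither collagen list and is not in these counts. It stood among the largest rises and had 34.8, 33.3 and 28.6 CPM at 24 h, against 8.81, 8.095 and 9.86 CPM at 2 h (log2 1.86 ± 0.20). Of 15 other collagens, 4 rose and 4 fell. Among them Col28a1 (1.22), Col6a1 (0.42) and Col6a2 (0.59) rose, and Col12a1, Col7a1 (-0.94), Col8a1 (-0.83) and Col4a2 (-0.41) fell. Col12a1, which links fibrils to their surroundings, had 120.4, 124 and 150.2 CPM at 24 h, against 359.9, 346 and 328 CPM at 2 h (log2 -1.39 ± 0.13), lower without overlap. Matrix proteases went both ways, with 5 of 18 up and 5 down. Over all tested genes 16.7% rose and 19.5% fell. With so few members, the counts of the collagen and protease lists do not stand apart from those shares. Mmp2, gelatinase A, had 139.8, 154 and 165 CPM at 24 h, against 85.02, 82.2 and 77.8 CPM at 2 h (log2 0.90 ± 0.11), and Mmp11 (1.203), Mmp23 (0.94) and the inhibitor gene Timp2 (0.66) also rose. Mmp3 (-0.93), Mmp10 (-1.04), Adamts1 (-0.78) and Timp1 fell, Timp1 with 283, 256 and 252 CPM at 24 h, against 484, 525 and 462 CPM at 2 h (log2 -0.90 ± 0.10). Mmp9 was called higher (2.41) at no more than 3.96 CPM in any library, which is a handful of reads.

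Markers of both lung fibroblast types rose more often than they fell. Of 15 adventitial markers, 8 rose and 0 fell, and their summed level was 2654 to 2815 CPM at 24 h and 1271 to 1346 CPM at 2 h. Beside Clec3b, gelsolin, Gsn, which severs actin filaments, had 1148, 1235 and 1296 CPM at 24 h, against 407, 384 and 452 CPM at 2 h (log2 1.57 ± 0.09). Dermatopontin, Dpt, had 64.1, 62.1 and 55.4 CPM at 24 h, against 19.4, 18.6 and 23.6 CPM at 2 h (log2 1.57 ± 0.15). Neither overlapped between the times. Pi16 (1.32), Cd248 (0.71), Mfap5, Pcolce2 (0.48) and Igfbp4 (0.52) rose, whereas Cd34, Ly6a, Ly6c1, Il33, Entpd2, Adh7 and Ccl11 had no call. Of 14 alveolar markers, 8 rose and 2 fell, and the sums were 1706 to 1780 CPM at 24 h and 1499 to 1624 CPM at 2 h. The carboxylesterase gene Ces1d had 46.7, 45.7 and 45.6 CPM at 24 h, against 21.1, 17.4 and 20.8 CPM at 2 h (log2 1.22 ± 0.15), without overlap. Enpp2 (1.05), the transcription factor gene Tcf21 (0.74), Scn7a (0.61) and Inmt (0.54) rose, and Npnt (-0.35) fell. In such bulk libraries a different number of cells of a type and a different amount of RNA per cell cannot be told apart.

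Division genes were lower at 24 h without exception among mitosis genes. All 24 of 24 mitosis genes and 19 of 20 replication genes fell, E2f1 being the one with no call. Cdk1 (chr10:69335146-69352912, GRCm38.p6, minus strand), the kinase that starts mitosis, had 45.1, 41.3 and 38.7 CPM at 24 h, against 139, 135 and 134 CPM at 2 h (log2 -1.71 ± 0.12, adjusted p = 5.26e-16 by edgeR). Ccnb2, a cyclin of that kinase, had 19.4, 20.1 and 26.5 CPM at 24 h, against 75.3, 66.4 and 76.1 CPM at 2 h (log2 -1.71 ± 0.14). Pcna, the sliding clamp of DNA polymerase, had 79.2, 89.2 and 88.8 CPM at 24 h, against 267, 291 and 248 CPM at 2 h (log2 -1.65 ± 0.10). In these genes each 24 h library was far below each 2 h library. Mybl2, a transcription factor of the cell cycle, fell most on the mitosis list (-2.53 ± 0.33), and Ccne2 (-1.96) and Gins1 (-1.86) most on the replication list. The regulators of the G1 phase did not move as 1 group. Of 12, 4 fell and 3 rose. The cyclin genes Ccnd1 (-0.71) and Ccnd2 (-0.41) fell, and Rbl2 (0.65), a pocket protein that holds cells in a resting state, rose.

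The windows before Cdk1 and Ccnb2 are shown because the mitosis genes moved together and their starts share letters known from cell cycle genes. CCAAT, or its reverse ATTGG, and TTTGAA, or its reverse TTCAAA, are in capitals. CCAAT was present on either strand in 17 of the 20 windows of mitosis genes (85.0%), against 37.7% of all windows, 36.4% of those of genes that rose and 42.7% of those of genes that fell. TTTGAA was in 13 of the 20 (65.0%), against 13.2% of all windows and 14.0% of those of genes that fell. Neither motif contains the other. TGACTCA, a site of AP-1, was searched too. It was in 0 of 21 windows of immediate early genes, 3.97% of those of genes that fell and 3.87% of all windows. CCAAT was in 42.9% of the immediate early windows and 7.69% of those of complement genes. The windows of Cdk1 and Ccnb2 are RefSeq, GRCm38.p6, 250 bases up to the start on the gene's strand.
Cdk1, chr10:69352913-69353162, minus strand: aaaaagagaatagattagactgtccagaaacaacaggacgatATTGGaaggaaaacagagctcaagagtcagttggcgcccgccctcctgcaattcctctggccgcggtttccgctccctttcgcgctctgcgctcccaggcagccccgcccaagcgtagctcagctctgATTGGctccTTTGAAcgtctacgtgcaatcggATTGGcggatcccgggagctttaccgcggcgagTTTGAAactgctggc
Ccnb2, chr9:70421555-70421804, minus strand: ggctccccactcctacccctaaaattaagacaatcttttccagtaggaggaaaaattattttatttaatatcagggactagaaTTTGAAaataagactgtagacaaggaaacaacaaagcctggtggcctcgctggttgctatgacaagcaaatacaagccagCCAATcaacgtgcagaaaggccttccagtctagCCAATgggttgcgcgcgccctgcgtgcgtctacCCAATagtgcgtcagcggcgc

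Among genes of cholesterol synthesis and uptake, a fall was called in 22 of 23 genes (median -1.58). Dhcr7 was the exception, with -0.53 ± 0.23 and an adjusted p of 0.0615 by edgeR. Hmgcs1, an early enzyme of the pathway, had 170.2, 167 and 184 CPM at 24 h, against 527, 563 and 462 CPM at 2 h (log2 -1.58 ± 0.09, adjusted p = 4.26e-18 by edgeR). Fdps, which makes farnesyl diphosphate further down, had 190.4, 189 and 180.1 CPM at 24 h, against 744, 757 and 685 CPM at 2 h (log2 -1.97 ± 0.10). Every 24 h library was far below every 2 h library in both. Insig1 (-1.59), which holds the sterol-sensing factor SREBP in check and is itself a target of it, fell in the same way, and so did Mvd (-1.98), Idi1 (-1.801) and Lss (-1.92). Of 12 fatty acid synthesis genes, 11 fell. Elovl6, an elongase, had 56.2, 63.6 and 60.6 CPM at 24 h, against 245, 247 and 238 CPM at 2 h (log2 -2.01 ± 0.10), without overlap, and Fasn (-1.45), Acly (-1.28) and Scd1 (-0.91) fell too. Targets of LXR, the receptor that responds to excess sterol, moved up, 5 of 7 with 0 lower. Apoe had 839, 899 and 805 CPM at 24 h, against 492, 413 and 426 CPM at 2 h (log2 0.93 ± 0.08), without overlap, and the exporter gene Abca1 (0.91), Mylip (0.91), a ubiquitin ligase gene, Nr1h3 (0.57) and Smpdl3a (1.16) rose.

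Hmgcs1 and Idi1 are shown as examples of the cholesterol list, again with CCAAT or its reverse ATTGG in capitals. Of the 23 genes of the list 15 matched a RefSeq window, with 18 windows, and 15 windows (83.3%) held CCAAT, against 37.7% of all windows. For the protein folding genes described next the share was 17 of 18 windows (94.4%).
Hmgcs1, chr13:119690101-119690350, plus strand: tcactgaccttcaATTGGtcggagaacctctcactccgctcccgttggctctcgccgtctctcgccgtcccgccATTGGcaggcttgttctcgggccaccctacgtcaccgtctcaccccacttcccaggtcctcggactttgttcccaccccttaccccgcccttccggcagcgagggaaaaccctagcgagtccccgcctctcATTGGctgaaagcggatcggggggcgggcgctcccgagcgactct
Idi1, chr13:8885356-8885605, plus strand: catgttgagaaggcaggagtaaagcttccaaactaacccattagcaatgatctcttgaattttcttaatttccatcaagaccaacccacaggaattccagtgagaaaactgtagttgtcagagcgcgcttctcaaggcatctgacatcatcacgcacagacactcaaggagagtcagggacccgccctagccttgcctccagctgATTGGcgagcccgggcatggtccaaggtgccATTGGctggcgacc

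Genes of protein production were lower across several steps. Of 20 genes for folding in the endoplasmic reticulum, 15 fell and 1 rose. The chaperone gene Hspa5, BiP, had 447, 483 and 512 CPM at 24 h, against 1068, 1132 and 1051 CPM at 2 h (log2 -1.17 ± 0.08), and Hsp90b1 (-1.11), Pdia6 (-0.95) and Manf (-0.90) fell too. Ddit3, the stress factor CHOP, was the one that rose (0.72 ± 0.12), and Xbp1 had no call. Of 21 amino acid and stress response genes, 13 fell, among them the serine pathway gene Shmt2 with 30.9, 35.5 and 36.6 CPM at 24 h, against 114, 115 and 100.2 CPM at 2 h (log2 -1.67 ± 0.11), Phgdh (-1.37), Asns (-1.26) and Atf4 itself (-0.61). Nupr1 rose (0.62 ± 0.11). Genes of glycolysis and hypoxia followed, with 13 of 20 lower and 0 higher. Hk1, Pfkl, Pfkp, Pdk1, Bnip3, Egln3 and Ankrd37 had no call. Hexokinase 2, Hk2, had 3.17, 5.12 and 6.27 CPM at 24 h, against 35.7, 41.7 and 42.7 CPM at 2 h (log2 -3.01 ± 0.23), the widest gap on that list, and Eno1 (-1.31), Pkm (-0.97), Slc2a1 (-0.93) and Gapdh (-0.87) fell.

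The translation machinery itself was lower. Of 79 ribosomal protein genes, 70 fell and 0 rose, with a median log2 of -0.56. Their summed level was 59690 to 62540 CPM at 24 h and 87400 to 94040 CPM at 2 h, with no overlap. Rpl13a had 1803, 1760.5 and 1667 CPM at 24 h, against 2989.5, 2586 and 2629 CPM at 2 h (log2 -0.65 ± 0.09). Rps2 had 1695, 1993 and 1677 CPM at 24 h, against 3444, 3844 and 2803 CPM at 2 h (log2 -0.91 ± 0.10). Each was lower in all 24 h libraries. Many ribosomal protein genes have near-identical pseudogene copies, and how reads with several matches were counted is not given in the sources used here, so single members are uncertain. Of 17 ribosome biogenesis genes, 15 fell. Nucleolin, Ncl, had 204, 201 and 193 CPM at 24 h, against 382, 464 and 412 CPM at 2 h (log2 -1.07 ± 0.10), without overlap, and Npm1 (-1.03) and Ddx21 (-1.39) fell too.

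Complement genes, many of which fibroblasts themselves express, were mostly higher at 24 h. Of 20 tested, 11 rose, 1 fell and 8 had no call. C3, the central component, had 137, 148 and 152 CPM at 24 h, against 55.9, 48.98 and 61.9 CPM at 2 h (log2 1.396 ± 0.14, adjusted p = 4.92e-11 by edgeR). C1ra, a protease that works with C1q, had 96.2, 97.97 and 101 CPM at 24 h, against 46.3, 44.1 and 55.3 CPM at 2 h (log2 1.03 ± 0.12). Serping1, the inhibitor of C1r and C1s, had 1395, 1566 and 1548 CPM at 24 h, against 737, 678 and 719 CPM at 2 h (log2 1.08 ± 0.09). In each the 24 h libraries were higher without overlap, and C1s1 (0.73), C4b (0.86) and Cd55 (0.70) rose, Cd55 being a regulator that protects host cells. Clu (-0.47), clusterin, fell. The genes of C1q itself rose at low levels. C1qb had 21.8, 20.1 and 20.9 CPM at 24 h, against 7.49, 7.29 and 7.67 CPM at 2 h (log2 1.48 ± 0.23), and C1qa (1.39) and C1qc (1.18) rose too. These are genes of macrophages. Of 18 myeloid markers, 8 rose, 0 fell and 10 had no call, among the last Csf1r, Cd68, Mrc1, Tyrobp and Itgam. The summed level of the 18 was 469.3 to 495.7 CPM at 24 h and 290.3 to 322.9 CPM at 2 h, most of it Lyz2. Ptprc, which encodes the CD45 used to take such cells out, averaged 3.19 CPM at 24 h and 2.44 CPM at 2 h, with no call. The part of such cells in the rise of the C1q genes was not tested.

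Described surface partners of C1q did not rise. Of 7 tested, 4 fell and 0 rose. Calr, calreticulin, had 617, 659 and 647 CPM at 24 h, against 1199, 1348 and 1108 CPM at 2 h (log2 -0.93 ± 0.09). C1qbp had 59.4, 59.95 and 56.4 CPM at 24 h, against 122, 115 and 102 CPM at 2 h (log2 -0.95 ± 0.13). The times did not overlap in either gene. Both also work inside the cell, as a chaperone and in mitochondria, and Calr is on the folding list above. The integrin subunit genes Itga2 (-0.80) and Itgb1 (-0.45) fell, and Lrp1, Cd93 and Megf10 had no call.

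Genes that are usually repressed by growth factor signalling were higher at 24 h. Of 12 genes responsive to FoxO factors or of the arrestin-domain family, 9 rose and 1 fell. Pik3ip1, an inhibitor of PI3 kinase, had 30.1, 28.9 and 30.7 CPM at 24 h, against 4.85, 4.05 and 8.76 CPM at 2 h (log2 2.39 ± 0.22). Igfbp5, an IGF-binding protein, had 380.5, 402 and 422 CPM at 24 h, against 111, 109 and 141 CPM at 2 h (log2 1.75 ± 0.10). Both were several times higher in each 24 h library, and Txnip (1.44), Sesn1 (1.23) and Ccng2 (0.99) rose, while Irs2 (-0.72) fell. Of 9 genes of the IGF system 4 rose and Igfbp3 (-0.75) fell. The p53 targets divided, 7 of 12 higher and 4 lower, with Trp53inp1 (1.07) and Phlda3 (0.83) up and Mdm2 (-0.44) down. The nuclear RNAs Neat1 (1.496 ± 0.10) and Malat1 (0.95 ± 0.10) rose. Among 11 metal genes, the iron exporter gene Slc40a1 (1.63) rose and 5 fell, such as the transferrin receptor gene Tfrc (-1.82) and metallothionein Mt1 (-1.31). Of 12 BMP genes 5 rose and 1 fell, among them Id3 (1.34), and of 11 Wnt genes Sfrp2 (1.18), Dkk3 (0.65) and Wnt5a (0.41) rose. Clock genes gave 3 rises and 3 falls of 16, with Per3 (1.21), Dbp (0.78) and Tef (0.71) up and Nfil3 (-1.27) and Bhlhe40 (-0.80) down. Of 17 lysosomal genes 3 rose and 2 fell, and of 8 antioxidant targets of NRF2 4 fell, with Txnrd1 (-1.11) first. Among all tested genes 16.7% rose and 19.5% fell, and the clock and lysosomal counts were near or below these shares.

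Markers of other lung cells also differed between the times. Epithelial markers, whose EpCAM-positive source cells the beads were meant to remove, fell in 8 of 11 genes, and their summed level was 273.2 to 331.6 CPM at 24 h and 529.1 to 593.8 CPM at 2 h. Krt8 had 45.5, 62.5 and 67.6 CPM at 24 h, against 115, 134 and 146 CPM at 2 h, and Scgb1a1, the secretory protein of club cells, had 0, 0 and 0.348 CPM at 24 h, against 4.85, 10.1 and 8.76 CPM at 2 h. Epcam had no call. Mesothelial markers rose in 4 of 8 genes, with sums of 438.3 to 452.2 CPM at 24 h and 280.9 to 315.9 CPM at 2 h, and Upk3b rose by 0.84. Endothelial markers had 0 calls of 9 by edgeR (4 at an unadjusted p under 0.05, and 0 by DESeq2), at sums of 68.36 to 75.23 CPM at 24 h and 71.21 to 78.12 CPM at 2 h. Of 7 mural markers 2 rose and 1 fell, at sums of 99.38 to 105.6 CPM at 24 h and 81.5 to 93.67 CPM at 2 h. With 7 genes these counts do not stand apart from the shares over all tested genes, 16.7% higher and 19.5% lower. No lymphocyte or red cell marker had enough counts to be tested. The part of these cells in the changes above was not tested.

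The same change from 2 h to 24 h was available at 1 and 10 µg/ml in 12 other libraries, so it could be asked which parts of it differ at the highest dose. For each gene the log2 change at 100 µg/ml was set against the mean of the changes at 1 and 10 µg/ml. That difference was positive and called for 556 genes (3.86% of those tested) and negative and called for 726 (5.04%). At the lower doses together 3602 genes rose and 3716 fell, more than at 100 µg/ml, but those 2 lower doses pool 12 libraries against 6, so the counts are not comparable. Of the 726 with a negative difference, 484 fell at 100 µg/ml, 44 rose and 198 had no call there. Of the 556 with a positive one, 189 rose, 114 fell and 253 had no call. The median difference over all tested genes was 0.02. One library of the lower doses stood apart, the third at 24 h in 1 µg/ml. It differed from its group mates by 8.03 and 8.48 chi-square units per degree of freedom, against 3.27 between those mates, and lay at 12.54 on the first principal component of all 39 libraries, against -0.511 and 0.5547. Its column name has the spelling of the 24 h libraries at 100 µg/ml, unlike those of its mates. The 1 µg/ml libraries at 48 h are split by spelling too. There the pairs across spellings differed by 1.89 and 2.07 units, against 2.7 for the pair of the same spelling. The part of the spelling was not tested. Without the third 24 h library at 1 µg/ml the called differences were 638 positive and 982 negative, and no difference of a gene named here lost its call.

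TGF-β genes had positive differences more often than negative ones. Of 14 TGF-β genes 7 had a positive and 0 a negative difference, against 3.86% and 5.04% of all tested genes. Of the 8 wound matrix genes 1 had a positive and 1 a negative one, and of 16 growth factors 5 and 1. Ccn1, an early matrix-bound signalling protein, averaged 51.8 and 236 CPM at 1 µg/ml, 49.8 and 237 CPM at 10 µg/ml, and 59.7 and 83.99 CPM at 100 µg/ml, in each case at 24 h and 2 h (difference 1.72 ± 0.18, adjusted p = 5.89e-09 by edgeR). Ccn2 averaged 84.3 and 416 CPM at 1 µg/ml, 63.6 and 462 CPM at 10 µg/ml, and 94.7 and 188 CPM at 100 µg/ml (difference 1.59 ± 0.14). In these genes the 24 h means lay close together across doses and the 2 h means at 100 µg/ml were the low ones. The same held for Thbs1, with 274 and 1856 CPM at 1 µg/ml, 259.8 and 2283 CPM at 10 µg/ml, and 252 and 871 CPM at 100 µg/ml (difference 1.16 ± 0.13), and for Ptgs2, with 12.4 and 121 CPM at 1 µg/ml, 13.01 and 139.6 CPM at 10 µg/ml, and 11.7 and 42.1 CPM at 100 µg/ml (difference 1.499 ± 0.23). Ereg (1.59 ± 0.23), the TNF-family gene Tnfsf15 (1.72 ± 0.19), and Atp8b1 (1.42 ± 0.27) also had positive differences. Counted over lists, the differences were positive in 5 of 21 immediate early genes, 5 of 13 ERK feedback genes, 10 of 25 inflammatory genes, 9 of 18 contractile genes and 4 of 10 coagulation genes, and negative in 0, 0, 2, 0 and 0 of them. With 1 µg/ml alone as the lower dose, the positive differences numbered 2 in the immediate early and 3 in the ERK feedback list. Without the third 2 h library at 100 µg/ml the immediate early list had 3, and without the first one the growth factors had 3.

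Some genes rose more at the high dose. Col27a1 averaged 17.2 and 14.4 CPM at 1 µg/ml, 17.7 and 12.3 CPM at 10 µg/ml, and 32.2 and 8.92 CPM at 100 µg/ml at 24 h and 2 h (difference 1.46 ± 0.25), higher at 24 h and lower at 2 h than at the other doses. Cebpd averaged 239.9 and 209 CPM at 1 µg/ml, 241 and 229 CPM at 10 µg/ml, and 229.8 and 78.2 CPM at 100 µg/ml (difference 1.42 ± 0.14), and there only the 2 h mean stood apart. Txnip (1.42 ± 0.18) and Malat1 (1.02 ± 0.13) had positive differences as well. Rn4.5s, a small non-coding RNA with many genomic copies, had the largest difference of the well expressed genes (1.73 ± 0.41), but its libraries at 24 h spread over 329, 135 and 95.8 CPM and the difference lost its call without the first of them, at 1.04.

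Ribosomal protein genes differed by dose almost throughout. In 73 of 79 the change was more negative at 100 µg/ml and in 0 more positive, with a median change of -0.56 at 100 µg/ml and 0.06 at the lower doses. Rpl13a averaged 2607 and 2702 CPM at 1 µg/ml, 2756 and 2496 CPM at 10 µg/ml, and 1744 and 2735 CPM at 100 µg/ml at 24 h and 2 h (difference -0.70 ± 0.11, adjusted p = 2.92e-05 by edgeR). The 2 h means were alike across doses and the 24 h mean at 100 µg/ml was the low one. The count was 73 with 10 µg/ml alone as the lower dose, whose columns carry the same spellings at 24 h and at 2 h as those of 100 µg/ml, and 43 with 1 µg/ml alone. The 4 pseudogenes of Rps12 (Rps12-ps12, -ps13, -ps15 and -ps16) were among the most negative differences, and since such copies share reads with their parent gene their values are uncertain.

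Some division, sterol and matrix genes had more negative changes at 100 µg/ml too. The cyclin gene Ccnb2 averaged 54.6 and 78.2 CPM at 1 µg/ml, 69.9 and 73.9 CPM at 10 µg/ml, and 21.99 and 72.6 CPM at 100 µg/ml at 24 h and 2 h (difference -1.42 ± 0.16), so the fall seen at 100 µg/ml was the large one. Igfbp4 averaged 783 and 221 CPM at 1 µg/ml, 783 and 239.7 CPM at 10 µg/ml, and 350.0 and 244 CPM at 100 µg/ml (difference -1.24 ± 0.11). Eln averaged 1160.3 and 447 CPM at 1 µg/ml, 929 and 459 CPM at 10 µg/ml, and 571 and 420.0 CPM at 100 µg/ml (difference -0.75 ± 0.14). In both the rise at 24 h was smaller at 100 µg/ml. Tm7sf2, a sterol reductase gene, averaged 69.98 and 69.4 CPM at 1 µg/ml, 71.7 and 69.4 CPM at 10 µg/ml, and 35.7 and 74.2 CPM at 100 µg/ml (difference -1.09 ± 0.15), and Mvd had a difference of -1.31 ± 0.16. Frmd5 (-1.56 ± 0.31), Arxes1 (-1.87 ± 0.27), the histone gene H2bc4 (-1.42 ± 0.18) and the complement gene C7 (-1.84 ± 0.44) rose at the lower doses, by 1.51 ± 0.14, 1.05 ± 0.13, 0.87 ± 0.09 and 2.102 ± 0.19. At 100 µg/ml Arxes1 (-0.82 ± 0.24; -0.65 and not called without the second 2 h library) and H2bc4 (-0.55 ± 0.15) fell, and Frmd5 (-0.05 ± 0.27) and C7 (0.26 ± 0.37) had no call. By lists, negative differences were called in 9 of 23 cholesterol genes, 6 of 20 folding genes, 5 of 24 mitosis genes, 4 of 20 complement genes, 4 of 9 IGF genes and 3 of 15 adventitial markers, with positive ones in 0, 0, 0, 0, 1 and 0. The mitosis count was 1 with 1 µg/ml alone as the lower dose. It was 2 without the second 24 h library at 100 µg/ml, and 3 without the third, without the first or the second 2 h library at that dose, or without the first 24 h library at 1 µg/ml. Without the first 2 h library at 100 µg/ml 2 adventitial markers were called. The positive difference among the IGF genes lost its call with 10 µg/ml alone and without the third 2 h library at 100 µg/ml.

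**Figure D4:**
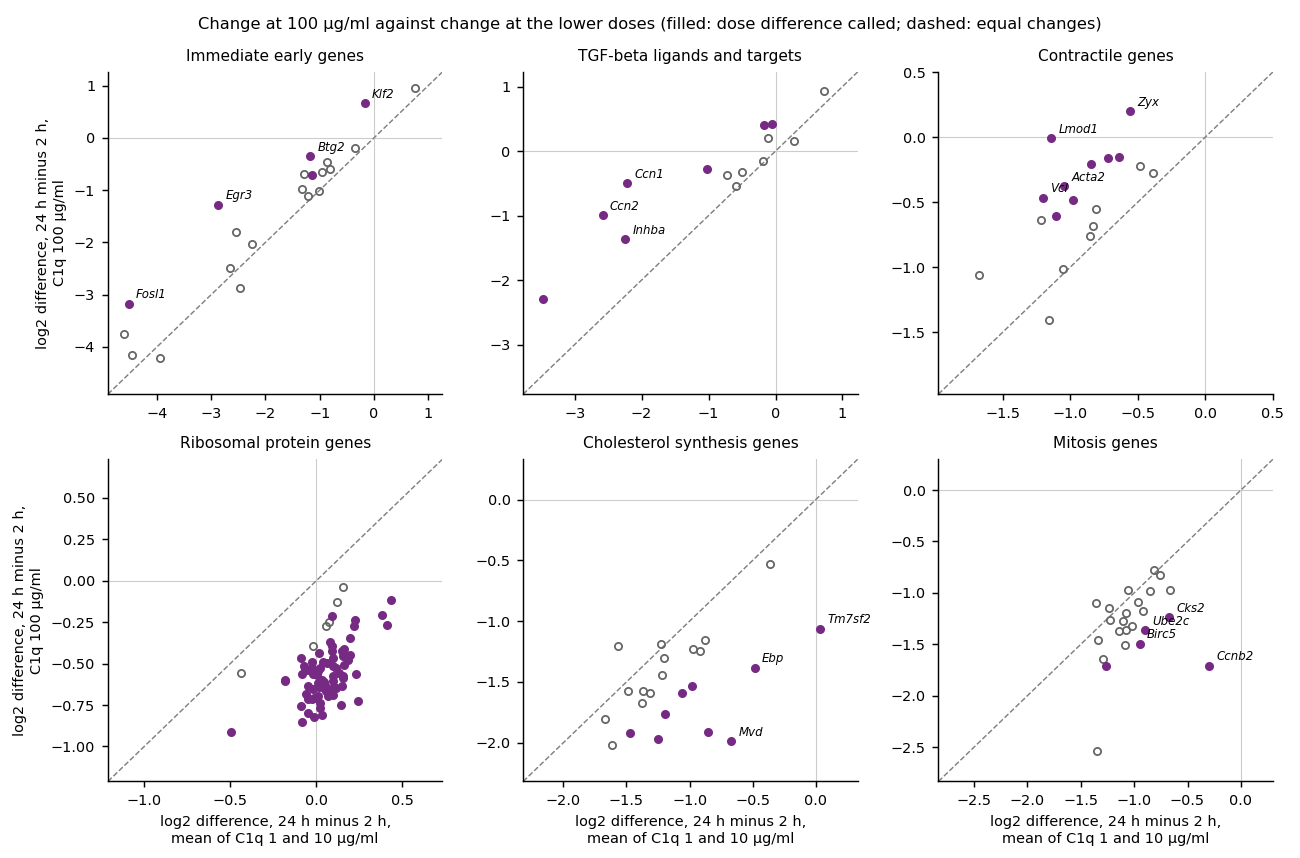
Log2 difference of 24 h minus 2 h at 100 µg/ml (vertical axes) against the mean of that difference at 1 and 10 µg/ml (horizontal axes) for the tested members of 6 lists, 1 point per gene, filled where the difference between doses was called; the dashed line marks equal changes and axis ranges differ between panels. Ribosomal protein genes lie below the line, with medians of -0.56 at 100 µg/ml and 0.06 at the lower doses, and Ccn1 and Ccn2 lie above it.

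Set beside untreated cells and the later times at 100 µg/ml, the 24 h libraries stood on different courses. The values are means of 3 libraries, and comparisons that share the 2 h or 24 h libraries are not tested against each other. Clec3b averaged 32.97 CPM at 0 h, 28.8 at 2 h, 229 at 24 h, 568 at 48 h and 709 at 72 h. Gsn averaged 433 CPM at 0 h, 414 at 2 h, 1226 at 24 h, 2185 at 48 h and 3402 at 72 h, and Mfap4 180.5 CPM at 0 h, 189 at 2 h, 571 at 24 h, 836 at 48 h and 1406 at 72 h. These 3 were flat to 2 h, higher at 24 h and higher again at 48 h and 72 h. Apoe followed with 414 CPM at 0 h, 444 at 2 h, 848 at 24 h, 1547 at 48 h and 2726 at 72 h. Hmgcs1 averaged 551 CPM at 0 h, 517 at 2 h, 174 at 24 h, 159 at 48 h and 158 at 72 h. Cdk1 averaged 157 CPM at 0 h, 136 at 2 h, 41.7 at 24 h, 18.3 at 48 h and 18.7 at 72 h, and Rpl13a 2936 CPM at 0 h, 2735 at 2 h, 1744 at 24 h, 1486 at 48 h and 1330.3 at 72 h. These stood near the untreated level at 2 h and stayed low from 24 h on. Nr4a1 had the transient form, with 5.63 CPM at 0 h, 144 at 2 h, 7.78 at 24 h, 19.8 at 48 h and 6.605 at 72 h. Thbs1 was at 474 CPM at 0 h, 871 at 2 h, 252 at 24 h, 322 at 48 h and 133 at 72 h. Ifit3, by contrast, was highest at 24 h, with 29.3 CPM at 0 h, 19.1 at 2 h, 80.5 at 24 h, 63.7 at 48 h and 59.5 at 72 h. Ccn1 was irregular, with 137 CPM at 0 h, 83.99 at 2 h, 59.7 at 24 h, 316 at 48 h and 41.6 at 72 h, the 48 h mean being the high one.

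**Figure D5:**
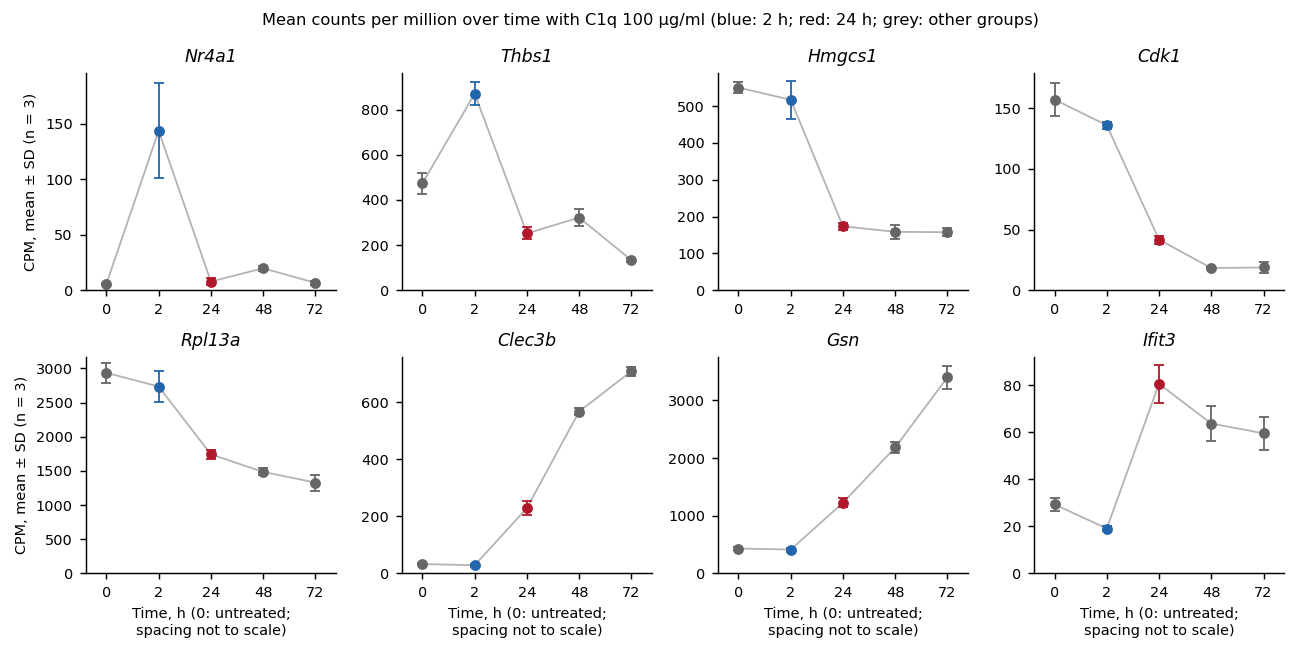
Mean CPM ± SD (vertical axis, linear; n = 3) of 8 genes in untreated cells (0 h) and after 2, 24, 48 and 72 h in C1q at 100 µg/ml (horizontal axis, not to scale), with 2 h in blue, 24 h in red and the other groups in grey; lines only join the means. Nr4a1 is high at 2 h alone, Hmgcs1, Cdk1 and Rpl13a are low from 24 h on, Clec3b and Gsn are higher at each later time from 24 h, and Ifit3 is highest at 24 h.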

How the data were processed

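RNA of cultured mouse lung fibroblasts was captured by its poly(A) tail and sequenced from the 5′ end on an Illumina instrument, per the labels' protocols. The submitters' processing notes name cutadapt 2.1.0, Bowtie2 2.4.2 and the build GRCm38. How reads were counted (tool, annotation, strand, several matches) is not given in the sources used here, so paralogs, overlapping and antisense genes are uncertain. The authors deposited 1 table of raw counts for 30012 gene names in 39 libraries, with totals of 1806106 to 3012518 counts, which sets the counting precision. Columns were matched to samples by title and serial number.

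Counts were tested with edgeR 4.0.16 (R 4.3.3), in a quasi-likelihood fit of all 39 libraries with 1 mean for each of 13 groups, so that all groups share 1 estimate of spread. The filter filterByExpr kept 14419 genes, which hold 99.4% of all counts. Scaling was by TMM, and the Benjamini-Hochberg adjustment ran over all tested genes, with a threshold of 0.05. The 2 contrasts were 24 h minus 2 h at 100 µg/ml, and that minus the mean of the same change at 1 and 10 µg/ml. The test was tried on simulated counts with known changes. Replicate pairs differed by 1.5 to 2.94 chi-square units per degree of freedom at 24 h and 1.85 to 3.5 at 2 h, so none looked like a library deposited again.

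Named genes were the 15 largest rises and falls among genes called over time with a mean log2 CPM of at least 4 over the 6 libraries, the 2 times not overlapping and the call kept with each of the 6 left out. To these came the 8 most positive and 8 most negative of the called dose differences with that mean over the 18 libraries at 2 h and 24 h. Predicted or unnamed transcripts were passed over. Also named were members of 50 gene lists, from which genes whose call over time was lost on leaving out 1 library were mostly not named. Some genes that the rule selects are not reported here. Members and lists were chosen with earlier results of these data known. Alternatives were DESeq2 1.42.0, a robust fit, no filter, RLE scaling, thinning to equal totals, the compared libraries alone, the table without its most abundant row, stricter thresholds, each lower dose alone and each library left out. Promoter windows came from RefSeq (GRCm38.p6), matched by symbol for 11009 of the tested genes; the motif TTTCNNTTT was added, and shortened by 1 letter, after the data were seen. Figures used matplotlib 3.10.9.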

Additional observations from a re-analysis of the deposited data

Results flagged for a closer look

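A difference between doses set these results apart: the log2 change of 24 h over 2 h at 100 µg/ml, minus the mean of that change at 1 and 10 µg/ml, passed an adjusted p of 0.05 in edgeR's quasi-likelihood test over all 14419 tested genes. A positive value means that the change was more positive at 100 µg/ml. Only genes named in the text are given, and no explanation was tested.
In early response and ERK feedback genes, the difference was 1.59 for Egr3, 1.34 for Fosl1 and 0.83 for Klf2, and 1.06 for Dusp1, 1.31 for Dusp4, 0.76 for Dusp6 and 0.61 for Spred1. The growth factor ligands and the receptor inhibitor Errfi1 stood at 1.59 for Ereg, 0.58 for Fgf10, -0.56 for Igf1 and 0.91 for Errfi1. Genes of TGF-β signalling, wound repair and contraction stood at 1.72 for Ccn1, 1.59 for Ccn2, 1.16 for Thbs1, 0.88 for Inhba, 0.47 for Tgfb3 and 0.67 for Acta2. Coagulation and inflammation gave 0.97 for F3, 1.499 for Ptgs2, 1.72 for Tnfsf15, 1.42 for Cebpd, 0.91 for Ccl2, 0.74 for Ccl7, 0.57 for Socs3 and -0.98 for Il33.

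Matrix and protease genes went both ways, with 1.46 for Col27a1, 0.73 for Aspn, 0.50 for Ogn and 3.11 for Mmp9 on the positive side and -0.59 for Clec3b, -0.70 for Adamts15, -1.13 for Col28a1, -0.90 for Lum, -0.75 for Eln, -0.69 for Mfap2, -0.66 for Timp1, -0.56 for Mmp3, -0.45 for Podn, -0.39 for Col3a1 and -0.88 for Spp1 on the negative side. Mmp9 was at a few reads per library throughout. Among complement genes, C1q partners and genes of the IGF system, the difference was -1.84 for C7, -0.64 for C1s1, -0.53 for Calr, -0.36 for Clu, -1.24 for Igfbp4, -1.03 for Igfbp3 and -0.44 for Igfbp5. Signalling and presentation genes stood at -0.86 for Id3, -0.48 for B2m and -0.94 for Dbp.
Division and sterol genes gave negative differences, at -1.42 for Ccnb2, -0.44 for Cdk1 and -0.56 for Pclaf, and at -1.31 for Mvd, -1.09 for Tm7sf2, -0.72 for Fdps, -0.45 for Lss, -0.88 for Acat3, -0.71 for Elovl6 and -0.51 for Apoe. The same sign held for folding and amino acid genes, at -0.71 for Manf, -0.54 for Hsp90b1, -0.47 for Pdia6, -0.55 for Shmt2 and -0.51 for Phgdh, and for the translation genes, at -0.70 for Rpl13a, -0.42 for Rps2, -0.67 for Rps12 and -0.56 for Npm1. The Rps12 pseudogenes, which share reads with their parent gene and with each other, had -1.55 for Rps12-ps13, -1.51 for Rps12-ps16, -1.42 for Rps12-ps15 and -1.39 for Rps12-ps12. The remaining positive differences were 1.73 for Rn4.5s, 1.42 for Atp8b1, 0.93 for Ccdc9b, 0.54 for Mettl7a1, 1.42 for Txnip, 1.14 for Tfrc, 1.02 for Malat1, 0.57 for Mt1, 0.50 for Slc2a1, 0.50 for Mdm2 and 0.41 for Phlda3. The other negative ones were -1.87 for Arxes1, -1.56 for Frmd5, -1.42 for H2bc4 and -1.38 for Bmf.

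On leaving out 1 library at a time, some of these calls were lost. Without the first 24 h library at 100 µg/ml, the difference was 1.09 for Dusp4, 1.17 for Fosl1 and 1.04 for Rn4.5s, with no call. Without the second 24 h library at 100 µg/ml, the difference was 0.63 for Dusp6, with no call. Without the third 24 h library at 100 µg/ml, the difference was 0.92 for Tfrc, with no call. Without the first 2 h library at 100 µg/ml, the difference was -0.49 for Clec3b, -0.72 for Lum and -1.16 for Rps12-ps12, with no call. Without the second 2 h library at 100 µg/ml, the difference was -0.44 for Podn and 0.48 for Spred1, with no call. Without the third 2 h library at 100 µg/ml, the difference was -0.32 for Igfbp5, 0.75 for Klf2 and -1.25 for Rps12-ps13, with no call. Several libraries ended the call, each on its own, at values of -0.72 to -0.56 for Adamts15, -0.50 to -0.42 for B2m, -0.46 to -0.38 for Cdk1, -0.38 to -0.32 for Clu, 0.54 to 0.56 for Fgf10, -0.41 to -0.40 for Lss, 0.47 to 0.50 for Mt1, -0.58 to -0.46 for Pclaf, 0.30 to 0.41 for Phlda3, -0.39 to -0.32 for Rps2, 0.39 to 0.49 for Slc2a1, 0.41 to 0.52 for Socs3 and 0.37 to 0.40 for Tgfb3. Other alternatives ended calls too. With 1 µg/ml alone as the lower dose, Adamts15, B2m, Bmf, Cdk1, Col3a1, Dbp, Dusp4, Dusp6, Egr3, Igfbp5, Klf2, Lss, Mdm2, Mt1, Pclaf, Phlda3, Rps2, Slc2a1, Socs3 and Tfrc had no call. With 10 µg/ml alone, Aspn, B2m, Ccl7, Clu, Col28a1, Fgf10, Fosl1, Igfbp3, Lss, Mmp9, Ogn, Phgdh, Phlda3, Podn, Rps12-ps12, Rps12-ps13, Tfrc and Tgfb3 had no call. At equal depth, B2m, Fosl1, Lum, Mmp9, Pclaf, Podn, Shmt2, Slc2a1, Tfrc and Tgfb3 had no call. With DESeq2, Cdk1, Pclaf and Socs3 had no call. Without a filter on low counts, Cdk1, Lss, Phlda3 and Tgfb3 had no call. In the robust fit, Adamts15 and B2m had no call. In a fit of the 18 libraries at 2 h and 24 h alone, Adamts15, Clu, Phlda3, Rps2 and Socs3 had no call. Without the most abundant row, Phlda3 had no call.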

How the results depend on the processing

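Directions held under DESeq2, RLE scaling, no filter, a robust fit, equal depth, the fit without the most abundant row, the fit of the compared libraries alone and each library left out: no named gene changed sign among the called values. With DESeq2, 1856 genes rose and 2548 fell at 24 h, and 382 and 613 genes had a more positive and a more negative change at 100 µg/ml than at the lower doses. With an adjusted p under 0.01, 1480 genes rose, and 258 and 381 dose differences were called. With a log2 difference of at least 1, 753 genes rose and 569 fell, and 105 and 112 dose differences were called. With 1 µg/ml alone as the lower dose, 303 and 402 were called. Leaving out 1 library gave 1753 to 2008 rises and 2503 to 2643 falls, and 345 to 638 more positive and 520 to 982 more negative dose differences. The lowest count of more positive differences, 345, came without the third 24 h library at 100 µg/ml, and 364 came without the first 2 h library. These counts fall partly because stricter thresholds or fewer samples call fewer genes; the cause of other moves was not tested.

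Of the named genes, Rn4.5s, Ccn1, Arxes1 and the pseudogene Rps12-ps16 lost the call over time with a library left out, and Col7a1 lost it at equal depth. The others were in part chosen for calls that held with each library left out, which therefore shows nothing about their stability. Some genes given as not called over time were called in other fits. Without a filter these were Col1a1, Dhcr7, E2f1, Fn1, Isg15 and Ly6a, and with the 6 compared libraries alone also B2m and Sparc. E2f1 was called too with RLE scaling, in the robust fit and without the most abundant row. On leaving out 1 library, E2f1, Dhcr7, Postn and Spred1 were each called at least once. List counts over time moved as well. Over the alternatives, 0 to 3 of 7 fibrillar collagens fell, and 1 to 3 of 10 coagulation and plasminogen genes rose. No paired analysis was possible because the labels number no replicates within groups. Depth limits genes at a few counts per library, such as Mmp9, Lcn2 and Scgb1a1, where values rest on single reads. Time in culture, length of exposure to C1q and the spelling of the column names change together between the groups at 100 µg/ml and cannot be told apart.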
